A study of Mus musculus with 3 samples.

Results

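The mouse serum amyloid A family (Saa1, Saa2, Saa3 and Saa4) was described across the cell classes of 3 liver single-cell RNA libraries. The 4 genes were chosen by their levels in these same libraries, and they are 4 of the 55357 Ensembl identifiers in the files, 28661 of which had a UMI (a unique molecular identifier, which counts each captured RNA once). Each symbol named 1 row, ENSMUSG00000074115 for Saa1, ENSMUSG00000057465 for Saa2, ENSMUSG00000040026 for Saa3 and ENSMUSG00000040017 for Saa4. Since their levels chose them, the differences between libraries and classes given here are descriptions, and no test was made.

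The libraries came from male C57BL/6 mice that were 8 weeks old at the start. The control library was taken from untreated mice. The high-fat diet library was taken from mice fed for 4 months with food that gave 60% of its energy as fat. The CCl4 library was taken from mice kept on chow for 3 months and then injected for 4 weeks, 2 times a week, with 0.1 mL of 10% carbon tetrachloride, a toxin that pericentral hepatocytes activate. Hepatocytes and nonparenchymal cells were separated by collagenase perfusion and mixed again 1:1, so the mixing sets how many hepatocytes a library holds. Each condition was 1 library of cells pooled from 2 mice, 6 mice in all, and the library and the condition cannot be told apart.

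Serum amyloid A proteins are small apolipoproteins that travel in the blood on high-density lipoprotein. Saa1 and Saa2 encode the acute-phase forms, which hepatocytes make in large amounts when interleukin 6, interleukin 1 and tumor necrosis factor act through STAT3, NF-kB and C/EBP factors. Saa3 encodes a further acute-phase form that mouse macrophages, adipocytes and epithelial cells can make as well as hepatocytes, and Saa4 encodes a form that the liver makes constitutively.

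The genes lie side by side on mouse chromosome 7. In the RefSeq annotation of GRCm38.p6, Saa3 spans chr7:46711998-46719615, Saa4 chr7:46727992-46732603, Saa1 chr7:46740497-46743181 and Saa2 chr7:46751833-46754313. Saa2 is on the plus strand and the other genes are on the minus strand. The 250 bases before each annotated start are shown because the 4 genes differ in how far their levels part between libraries, and because factors of the acute-phase response act on such stretches. The starts are those of the transcripts in the RefSeq promoter table. The spans given for Saa1 and Saa3 reach further upstream, so the Saa1 stretch lies mostly, and the Saa3 stretch wholly, inside the gene's span. The sequences run 5′ to 3′ toward the gene, and capitals mark matches to a C/EBP motif (TTGCNNAA) or an NF-kB motif (GGNNNTTTCC), both searched on both strands.
Saa1, chr7:46742981-46743230, minus strand: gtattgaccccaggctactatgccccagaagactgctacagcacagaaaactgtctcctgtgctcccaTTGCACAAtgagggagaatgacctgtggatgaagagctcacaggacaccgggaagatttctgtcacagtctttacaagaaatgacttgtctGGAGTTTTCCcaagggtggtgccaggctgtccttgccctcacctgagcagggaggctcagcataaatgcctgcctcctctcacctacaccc
Saa2, chr7:46751583-46751832, plus strand: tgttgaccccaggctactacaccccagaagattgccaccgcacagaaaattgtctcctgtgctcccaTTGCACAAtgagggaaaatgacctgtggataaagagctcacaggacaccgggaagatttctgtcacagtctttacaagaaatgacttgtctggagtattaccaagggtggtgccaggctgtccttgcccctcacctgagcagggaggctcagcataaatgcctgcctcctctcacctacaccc
Saa3, chr7:46715677-46715926, minus strand: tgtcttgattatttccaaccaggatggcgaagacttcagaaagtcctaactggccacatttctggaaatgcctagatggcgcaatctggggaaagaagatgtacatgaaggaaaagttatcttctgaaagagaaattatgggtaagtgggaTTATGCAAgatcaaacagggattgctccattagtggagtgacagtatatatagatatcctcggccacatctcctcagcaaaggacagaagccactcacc
Saa4, chr7:46732604-46732853, minus strand: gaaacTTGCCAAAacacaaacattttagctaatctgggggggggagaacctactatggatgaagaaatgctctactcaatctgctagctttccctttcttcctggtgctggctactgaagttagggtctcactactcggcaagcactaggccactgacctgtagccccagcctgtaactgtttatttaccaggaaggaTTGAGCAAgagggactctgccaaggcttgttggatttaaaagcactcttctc

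A C/EBP match lay 182 to 175 bases before the start of Saa1 and 183 to 176 bases before that of Saa2. In Saa3 the match lay 99 to 92 bases before the start, on the opposite strand. Saa4 held 2 matches, at 245 to 238 bases and, on the opposite strand, at 52 to 45 bases. The NF-kB letters were found in Saa1 alone of the 4 genes, at 91 to 82 bases, and none of the matches overlapped. C/EBP letters occurred in 9.56% and NF-kB letters in 4.63% of the 32851 stretches of the same length in the RefSeq table. Neither the STAT3 letters (TTCNNNGAA, in 7.02% of stretches) nor the TATA letters TATAAA (in 12.4%) occurred in any of the 4 windows. Other forms of the TATA box were not searched, and the Saa3 window holds the letters tatatata. These matches are letters in a window, with no measurement of binding.

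Saa1 and Saa2 were near copies of each other. Aligned over their whole length, 94.8% of the positions of their upstream stretches were the same, against 44.7% to 50.6% for the other pairs. Their GENCODE M21 transcripts were identical at 93.9% of aligned positions, and those of Saa1 and Saa3 at 64.6%. No stretch of 90 bases within the last 300 bases of any of the 4 transcripts was shared with another of them (0 of 211 stretches for each pair), so their 3′ reads can be told apart where they reach a difference. RefSeq lists the older names of Saa1 and Saa2 the other way round, so the names here follow the Ensembl identifiers of the files.

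The libraries held 11245, 12984 and 12761 barcodes for control, high-fat diet and CCl4, an order kept for all values that follow, with 49613255, 34985786 and 34061186 UMIs. The 36946 cells kept fell into 39 clusters, of which 38 were named as 17 classes from markers. Hepatocyte-like cells numbered 5029, 6505 and 7042, in 8 clusters, in which 6 to 16 of 16 hepatocyte markers were raised. A cluster that comes mostly from 1 library may be that library and not a type, and this holds for most of the hepatocyte clusters. The T cell-like class (1743, 2133 and 1996 cells, 10 or 11 of 12 markers raised in each cluster) served as the level of free RNA, since T cells do not make liver plasma proteins. Libraries shared 36, 49 and 52 barcodes, at most 0.436% of a library. The 12 hepatocyte reference genes, such as Alb, gave 9.75%, 12.1% and 17.5% of hepatocyte UMIs and still 3.00%, 8.35% and 13.6% of T cell UMIs, so free hepatocyte RNA was abundant in every library.

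The family was far more abundant in the control library than in the other libraries. Its 4 genes made up 2.91%, 0.101% and 0.0463% of all UMIs. With mitochondrial genes left out, Saa2 and Saa1 took places 12 and 14 among all genes by UMIs summed over the 3 libraries. In hepatocyte-like cells, the family reached 40612 UMIs per 1000000 UMIs (CPM) for control (95% Poisson interval 40537 to 40687), 1147 for the diet (1131 to 1163) and 476 for CCl4 (467 to 486). The control level was thus 35.4 times the high-fat diet level (95% exact interval 34.9 to 35.9) and 85.2 times the CCl4 level (83.6 to 87.0), and the high-fat diet level was 2.41 times that with CCl4 (2.35 to 2.47). With the T cell level of each library subtracted, as a measure of free RNA, the first pair of ratios was 100.85 and 266. Both divide by a difference that is small beside the levels subtracted, and they are given without an interval, so they are less certain than the ratios above. Intervals cover counting error only, and say nothing of the spread between mice.

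Saa1, an acute-phase form of the plasma protein, stood at 17482, 659 and 193 CPM in hepatocytes. Saa2, its near copy, stood at 21864, 349 and 94.6 CPM. For both genes the order was control, high-fat diet, CCl4, with no overlap of the counting intervals. The control level of Saa1 was 26.5 times that on the high-fat diet and 90.8 times that with CCl4. For Saa2 the ratios were 62.6 and 231, the second taken against a CCl4 level that was not told from that of T cells (92.8 CPM, 84.0 to 102).

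Saa3, the acute-phase form with sources outside hepatocytes, had 678, 9.80 and 13.5 CPM in hepatocyte-like cells. Here the CCl4 level was the higher of the lower pair, at a ratio of high-fat diet to CCl4 of 0.726 (0.596 to 0.881). That ratio turned to 1.34 with the T cell level subtracted. Over all deposited barcodes, which include the other classes, it was 1.32. On the high-fat diet, monocyte-like cells held 637 of the 1026 Saa3 UMIs of all barcodes and hepatocyte-like cells 172. With CCl4, Kupffer-like cells held 266 of 756 and hepatocyte-like cells 277. In hepatocyte-like cells the control level was 69.1 times that on the high-fat diet and 50.2 times that with CCl4.

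Saa4, the constitutive form, had 588, 129 and 176 CPM. Its control level was 4.57 times that on the high-fat diet (4.37 to 4.77) and 3.34 times that with CCl4 (3.23 to 3.47), smaller than for the other 3 genes. The high-fat diet to CCl4 ratio was 0.732 (0.695 to 0.772). Saa4 therefore stood in another order than Saa1 and Saa2, with the high-fat diet library lowest.

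**Figure D1:**
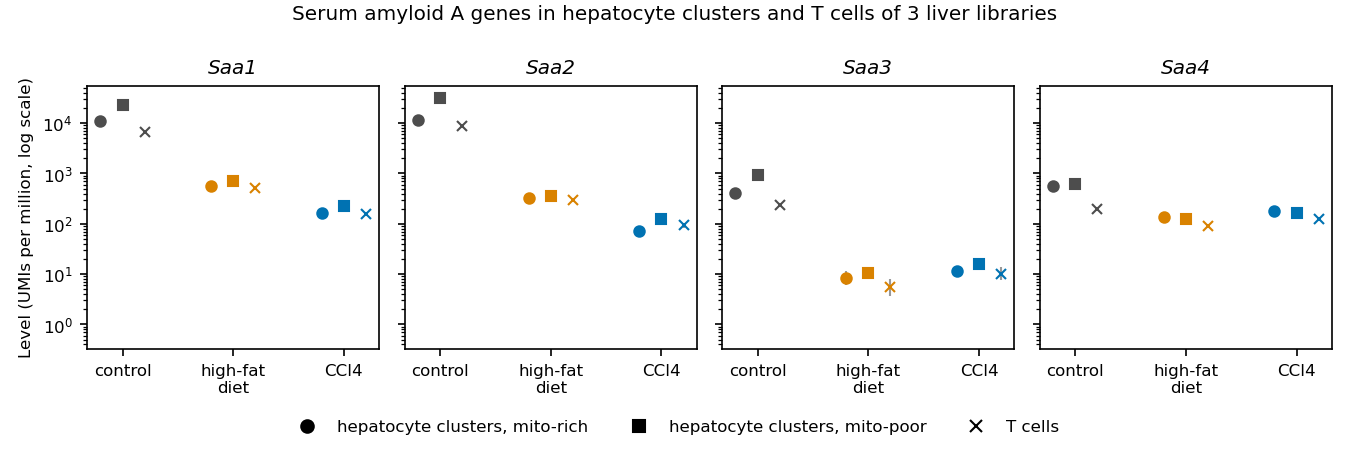
Level of each serum amyloid A gene (CPM, log axis) by library, for hepatocyte clusters rich in mitochondrial RNA (circles), hepatocyte clusters poor in it (squares) and T cells (crosses). Vertical lines are 95% Poisson intervals, mostly smaller than the symbols. For Saa1, Saa2 and Saa3, all 3 control symbols, T cells included, stand above every symbol of the other libraries.

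Set against all genes, Saa2 and Saa1 led the differences between control and CCl4 hepatocytes. Among 2652 genes with at least 50 CPM in either library, 213 were at least 2-fold higher in the control library (on CPM plus 5), 8.03% of them, and 196 were lower, 7.39%. All 4 members were among the higher genes, at places 1 for Saa2, 2 for Saa1, 8 for Saa3 and 95 for Saa4. Against the high-fat diet, 193 of 2633 genes (7.33%) were higher in the control library and 144 (5.47%) were lower. The members were again all among the higher genes, at places 4 for Saa2, 5 for Saa3, 6 for Saa1 and 40 for Saa4. Between the high-fat diet and CCl4 libraries, 122 of 2590 genes (4.71%) were higher on the diet and 121 (4.67%) were lower. Saa2 and Saa1 were among the higher, at places 45 and 49, Saa4 was in neither group, and Saa3 was under the 50 CPM limit. The members were chosen by these levels, so nothing is read from their counts against these shares.

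The makeup of the family also differed. Counted at the 3′ end, each RNA gives at most 1 UMI whatever its length, so the shares need no scaling by length, although capture can differ between genes. In control hepatocytes there were 0.800 Saa1 UMIs for each Saa2 UMI (95% exact interval 0.797 to 0.803). The ratio was 1.89 on the high-fat diet (1.83 to 1.95) and 2.03 with CCl4 (1.93 to 2.15). Saa2 was thus the more abundant of the pair in the control library alone of the 3. Saa4 gave 1.45%, 11.2% and 36.9% of the family's UMIs, largest where Saa1 and Saa2 were lowest. T cells of the same libraries held 0.781 (0.770 to 0.793), 1.73 (1.62 to 1.84) and 1.67 (1.47 to 1.89) Saa1 UMIs per Saa2 UMI. Each value was below that of all hepatocytes of its own library together. The intervals of T cells and of all hepatocytes overlapped on the high-fat diet and did not overlap in the control and CCl4 libraries. Control hepatocytes of clusters poor in mitochondrial RNA lay below T cells, at 0.740 (0.737 to 0.744), and those of rich clusters above, at 0.966 (0.960 to 0.973). The values for poor and rich clusters were 1.94 and 1.74 on the high-fat diet and 1.83 and 2.31 with CCl4.

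The control library also stood apart cell by cell. Every one of the 5029 control hepatocytes had UMIs of both Saa1 and Saa2. On the high-fat diet 2815 of 6505 (43.3%) had both and 766 (11.8%) neither, and with CCl4 542 of 7042 (7.70%) had both and 3995 (56.7%) neither. The median hepatocyte gave 46.1 (5th to 95th percentile 13.5 to 83.4), 1.02 (0 to 2.65) and 0.387 (0 to 1.46) family UMIs per 1000 UMIs. The 10% of hepatocytes with the most family UMIs held 29.6%, 29.7% and 42.3% of them.

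**Figure D2:**
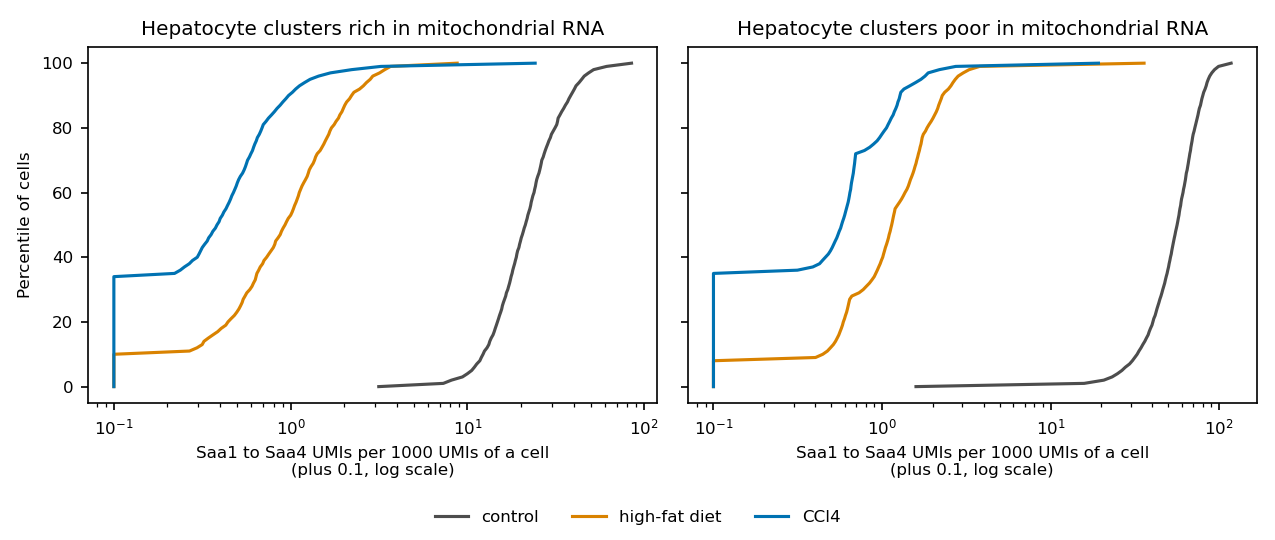
Distribution of the family level over single hepatocytes of each library: percentile of cells (vertical axis) against the summed Saa1 to Saa4 UMIs per 1000 UMIs of a cell, plus 0.1 so that cells at 0 can be drawn (log axis). The left panel holds clusters rich in mitochondrial RNA and the right panel those poor in it. In both, the control curve lies to the right of the other curves at every percentile drawn.

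Free RNA reached most droplets, so a share of cells with a UMI is not a share of cells that express the gene. Saa1 was found in 100%, 77.8% and 34.1% of hepatocytes, but also in 100%, 68.4% and 27.7% of T cells. Median depths were 3778, 2294 and 2287 UMIs in hepatocytes and 2374, 2214 and 2019 in T cells. After thinning every cell to 1000 UMIs, which left out no cell, Saa1 was expected in 99.9%, 47.3% and 16.1% of hepatocytes and in 98.1%, 39.5% and 14.2% of T cells. Saa3 was expected in 40.3%, 0.835% and 1.14% of hepatocytes and in 16.9%, 0.511% and 1.03% of T cells, and without thinning it was found in 69.0%, 1.84% and 2.56% of hepatocytes and 35.3%, 1.22% and 2.20% of T cells. Outside the control library the Saa3 shares are read as near background.

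The T cells of each library carried the family at a level that followed its hepatocytes. The T cell level was 15892, 902 and 383 CPM. Hepatocytes exceeded T cells 2.56, 1.27 and 1.24 times. For Saa2 with CCl4 the ratio was 1.02, with an interval of 0.916 to 1.14 that holds 1. T cells alone also parted the libraries, with a family level in control T cells 17.6 times that on the high-fat diet and 41.5 times that with CCl4.

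The hepatocyte reference genes gave a further scale. Per UMI of those 12 genes, hepatocytes held 0.787 (control, 0.781 to 0.793), 0.876 (high-fat diet, 0.848 to 0.905) and 0.968 (CCl4, 0.919 to 1.02) times the family UMIs of T cells. On that scale T cells held more of the family than hepatocytes did in the control and high-fat diet libraries, and with CCl4 the interval holds 1.

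Hepatocyte clusters with a high share of mitochondrial RNA were looked at on their own. For the zones this alternative was chosen after the data were seen. The clusters whose median share reached 2% held 1532, 1179 and 3018 cells, with median shares of 6.16%, 4.36% and 4.61%. In them, the family stood at 23884, 1022 and 431 CPM. The control level was 23.4 times that on the high-fat diet (22.7 to 24.1) and 55.4 times that with CCl4 (53.9 to 56.9). In clusters poor in mitochondrial RNA the levels were 56747, 1192 and 536 CPM, and the ratios 47.6 and 106. Saa4 was close in both kinds of control cluster, at 558 and 616 CPM, where Saa2 stood at 11652 and 31714 CPM, and the Saa1 to Saa2 ratio was 0.966 in the rich and 0.740 in the poor clusters.

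Across the other classes of the control library, the family tracked the reference genes. Over 15 classes of at least 20 cells, it ranged from 4101 CPM in myeloid progenitor-like cells to 36511 CPM in erythroid-like cells. Per reference UMI these classes lay between 0.788 (basophil-like) and 1.16 (erythroid-like) times the T cell value. Granulocyte-like, B cell-like and erythroid-like cells were above T cells in CPM and also held more of the reference genes, as the plot of levels against reference genes shows. Per reference UMI, 5 classes were still above T cells, these and the Kupffer-like and plasma cell-like cells. On the same scale Saa3 alone ranged from 0.497 in plasmacytoid dendritic-like cells to 2.03 times in plasma cell-like cells.

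**Figure D3:**
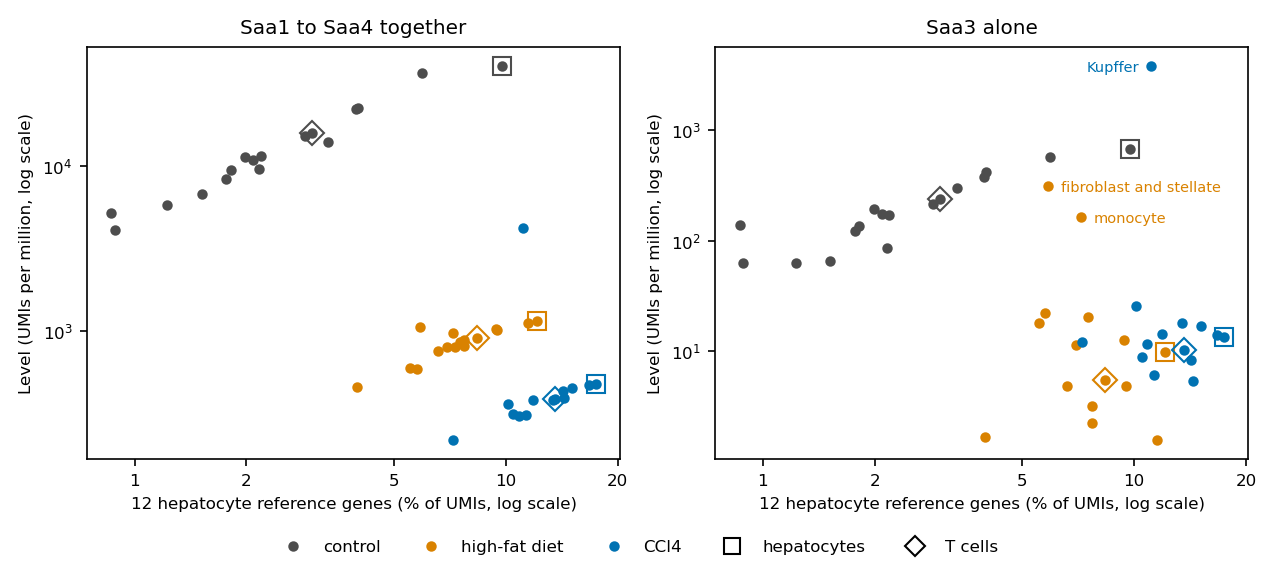
Level of the family (left) and of Saa3 alone (right) in each cell class of at least 20 cells (CPM, log axis) against the share of UMIs from 12 hepatocyte reference genes (percent, log axis), colored by library. Squares mark hepatocytes and diamonds T cells, and 1 class with no Saa3 UMI on the high-fat diet is not drawn. Control classes lie along a rising band, and for Saa3 the named CCl4 Kupffer class and the high-fat diet fibroblast and stellate and monocyte classes lie far above their libraries.

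Saa3 stood far above the T cell level in 3 nonparenchymal classes, and in each it was carried by a minority of the cells. The Kupffer-like class of the CCl4 library (26 cells, the resident macrophages of the liver) held 266 Saa3 UMIs, or 3824 CPM (3378 to 4312), 372 times the T cell level of 10.3 CPM (270 to 522). Of its cells 4 had any, with 131, 80, 53 and 2 UMIs, and without the highest cell the level was 2022 CPM, 197 times that of T cells. These 4 cells had 2124 to 2810 UMIs and 4 or 5 of 11 Kupffer markers each, and they also held UMIs of 12 to 14 of 16 hepatocyte markers, as did a Kupffer-like cell without Saa3 (13 of 16). In the high-fat diet library the same class (73 cells) had 4 Saa3 UMIs, 20.4 CPM, with an interval of 5.56 to 52.3.

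The monocyte-like cells of the high-fat diet library held Saa3 in many more cells. They numbered 1412 and carried 637 UMIs, or 164 CPM (151 to 177), 29.8 times the T cell level of 5.49 CPM (20.4 to 45.2). A UMI was found in 205 of them (14.5%), against 1.22% of T cells, at median depths of 2605.5 and 2214 UMIs. The cluster led by Lyz2, Thbs1 and Chil3 stood at 257 CPM over 735 cells (568 UMIs in 175 cells), and the cluster led by Il1b, Cybb and Lyz2, with Ear2 among its leading genes, at 40.2 CPM over 672 cells. In the CCl4 library, monocyte-like cells (236) held 7 Saa3 UMIs, 11.5 CPM, which is 1.12 times the T cell level with an interval of 0.427 to 2.50.

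Fibroblast- and stellate-like cells of the high-fat diet library (136 cells) held 137 Saa3 UMIs, 314 CPM (264 to 371), 57.2 times the T cell level (37.9 to 89.3). The UMIs lay in 21 cells, of which the highest had 38, 21 and 18. Cells of this class with at least 3 of 8 mesothelial markers, which mark the lining of the liver surface, stood at 482 CPM over 71 cells (398 to 578). The remaining 65 cells stood at 107 CPM (66.5 to 164), but 18 of their 21 UMIs lay in 1 cell, and without it, a setting chosen after the data were seen, the level was 15.7 CPM (3.23 to 45.8), an interval that holds the T cell level. Without its own highest cell, the group with the markers stood at 328 CPM (259 to 409). With CCl4 the class had 15 cells, and all of its 27 Saa3 UMIs were in 1 of them. In the other classes of these libraries whose interval lay above T cells, few UMIs were behind it, with 11 in cholangiocyte-like and 6 in myeloid progenitor-like cells on the high-fat diet, and 10 in dendritic-like and 38 in B cell-like cells with CCl4, at 1.63 to 4.00 times the T cell level.

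Saa1, Saa2 and Saa4 showed no such class. Per reference UMI, the highest ratio to T cells over the classes of the high-fat diet library was 1.29 for Saa1, 1.19 for Saa2 and 1.06 for Saa4. With CCl4 the highest ratios were 1.20, 1.48 and 1.40. The 658 CCl4 cells of a cluster left without a name, led by Slc8a1 and predicted genes, stood at 641 CPM for the family, above the hepatocytes of that library.

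Within hepatocytes, levels were set out by zone, since the lobule is supplied from the portal side and drains at the central vein, and the zones run different programs. Hepatocytes of each library were split into 3 equal groups by pericentral against periportal marker genes, none of which is a member. Over all hepatocyte clusters the family was 1.04, 1.44 and 1.08 times as high in the pericentral as in the periportal group, but in the control library the middle group was the highest, at 54428 CPM against 35699 periportal and 37035 pericentral. Median depths there were 6421, 3083.5 and 3089 UMIs and median mitochondrial shares 1.01%, 0.382% and 0.676% from the periportal to the pericentral group, and their part was not tested. The values that follow are those of the clusters rich in mitochondrial RNA. In the control library, Saa1 stood at 11181, 11668 and 10978 CPM from the periportal to the pericentral group, and Saa2 at 11087, 11920 and 12240. The family was nearly even in these clusters, at 1.04 times in the pericentral against the periportal group.

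On the high-fat diet the acute-phase pair was graded. Saa2 stood at 128, 315 and 553 CPM from the periportal to the pericentral group, and Saa1 at 391, 538 and 767. T cells of that library stood at 295 CPM for Saa2 and 510 CPM for Saa1, so the periportal group lay below the level of free RNA for both genes, the middle group close to it and the pericentral group above it. The pericentral group had 4.30 times the Saa2 level of the periportal group (3.71 to 5.00) and 1.96 times its Saa1 level (1.78 to 2.16). Saa4 was at 153, 125 and 134 CPM, with intervals of the outer groups that overlap. Over all hepatocyte clusters together the grade was smaller, 1.91 times for Saa2 and 1.33 times for Saa1.

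With CCl4 the gradients differed between genes, and those of Saa1 (1.15 times) and Saa2 were smaller than on the high-fat diet. The groups are ranks within a library and do not cover the same range of zones. In the pericentral group, the pericentral marker genes stood at 15135 (control), 24336 (high-fat diet) and 4065 CPM (CCl4). The periportal marker genes stood there at 4315, 3247 and 15092 CPM. With CCl4, Saa2 stood at 48.3, 77.0 and 91.1 CPM from the periportal to the pericentral group. Its ratio of pericentral to periportal was 1.89 (1.58 to 2.26), but no group was above the T cell level of 92.8 CPM. Saa4 ran the other way, at 203, 184 and 162 CPM, a ratio of 0.795 (0.714 to 0.884). Saa3 stood at 5.58, 15.2 and 14.6 CPM, near the level of free RNA. The groups differed in depth too, with medians of 3568, 3356 and 3091 UMIs with CCl4, 4396, 3064 and 3488 on the high-fat diet and 11047, 6152 and 7078 in the control library, and the part of depth was not tested.

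**Figure D4:**
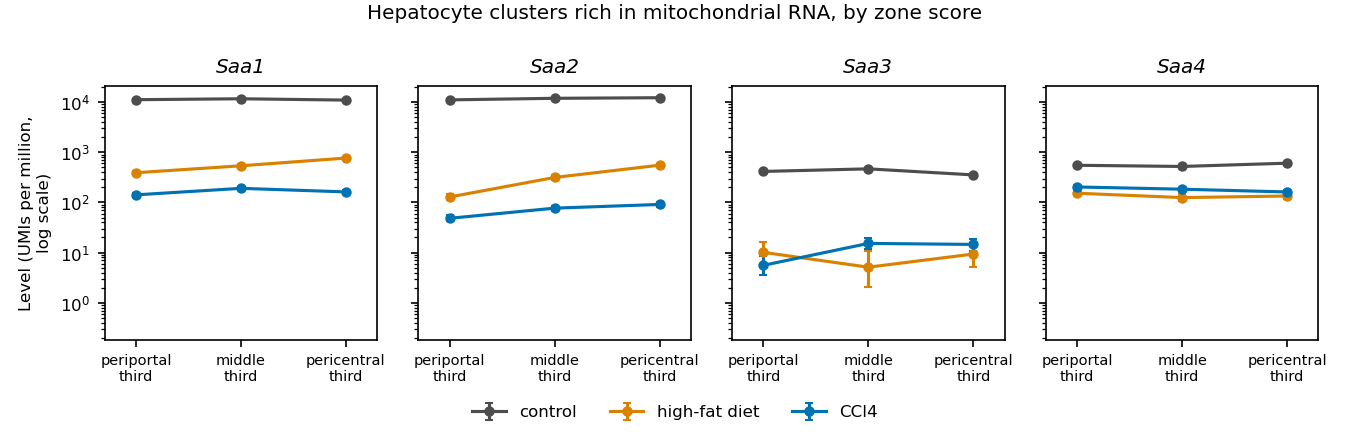
Level of each serum amyloid A gene (CPM, log axis) in 3 equal groups of the hepatocytes of clusters rich in mitochondrial RNA, from periportal to pericentral, in each library (control, diet, CCl4). Vertical bars are 95% Poisson intervals. The high-fat diet lines of Saa1 and Saa2 climb toward the pericentral group, and the control lines of this pair are nearly flat.

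The other acute-phase proteins were higher in the control library as well. Of 31 on the list, 27 passed the 50 CPM limit between the control and high-fat diet hepatocytes, and 23 of them were at least 2-fold higher in the control library and 1 lower, where 7.33% of all genes were higher and 5.47% lower. Their median log2 ratio was 1.88, against -0.06 over all 2633 genes. Against CCl4, 20 of 27 were higher and 1 lower, where 8.03% and 7.39% of all genes were, with a median log2 ratio of 1.39 against 0.03 over 2652 genes. Between the high-fat diet and CCl4, 2 of 25 were higher on the diet and 3 lower, where 4.71% and 4.67% of all genes were.

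The largest of these ratios were those of the metal-binding and iron-sequestering proteins. Mt2, a metallothionein, stood at 4141, 27.8 and 88.9 CPM in the 3 hepatocyte sets, and Mt1, its companion gene, at 15327, 178 and 421. Lcn2, which encodes the siderophore-binding lipocalin 2, had 3048, 21.3 and 38.9 CPM. For these 3 genes the high-fat diet library was the lowest, as it was for Saa4 and not for Saa1 and Saa2. T cells had them in the same order, with Mt2 at 1811, 13.7 and 39.1 CPM. Mt1 stood there at 4914, 103 and 277 and Lcn2 at 841, 15.1 and 23.8. The highest Lcn2 level was in control granulocyte-like cells (3727 CPM). Whether the differences belong to hepatocytes or to the whole library was not tested.

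Steap4, a metalloreductase, stood at 1161, 51.6 and 122 CPM. Orm2, an orosomucoid, stood at 898, 72.5 and 24.3 CPM, and Apcs, the serum amyloid P component, at 1406, 120 and 77.9, so both plasma proteins shared the order of Saa1 and Saa2, with CCl4 lowest. In T cells Steap4 stood at 342, 33.7 and 55.5 CPM, Orm2 at 304, 53.5 and 18.3 and Apcs at 402, 74.7 and 56.0. Mbl2, a mannose-binding lectin of the complement system, was the one gene of the list that was lower in control hepatocytes, at 388, 848 and 795 CPM. T cells held it at 165, 676 and 725 CPM, and its highest level was in CCl4 B cell-like cells (883). Whether the differences of these genes belong to hepatocytes or to the whole library was not tested.

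**Figure D5:**
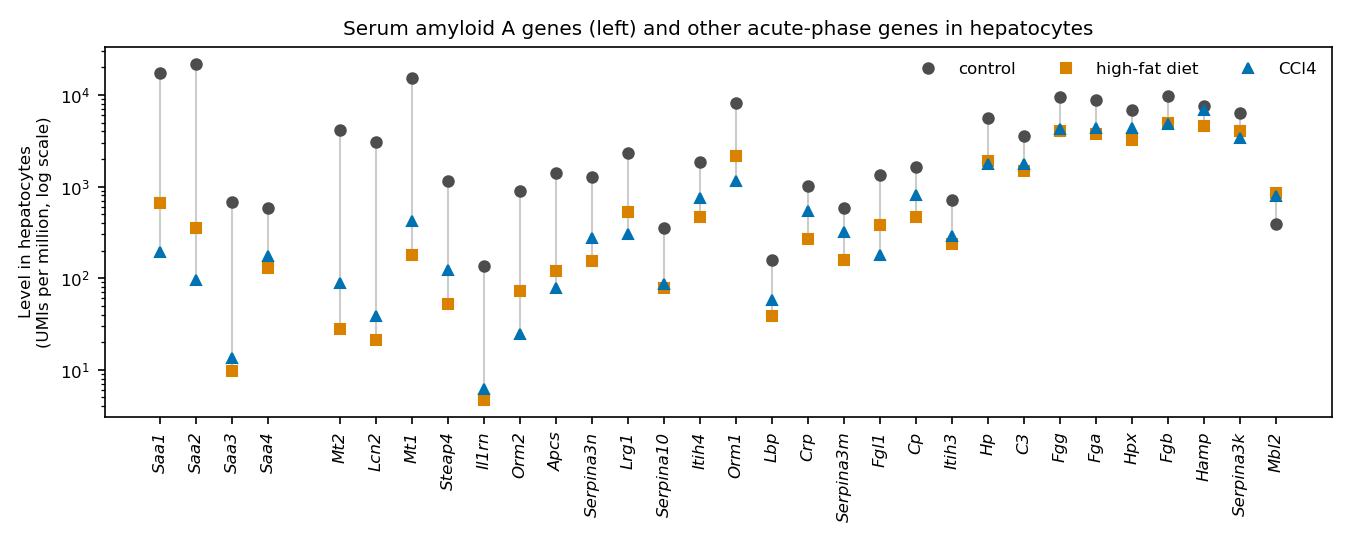
Level in hepatocytes (CPM, log axis) of the 4 serum amyloid A genes, at left, and of the 27 other acute-phase genes that passed the 50 CPM limit, in each library (control, diet, CCl4). The control point is the highest for each gene but Mbl2.

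Upstream of the family, the receptors and signal transducers of hepatocytes that passed 2-fold against the control library were all higher in it. Of 16 cytokine receptors, 4 passed the limit against the high-fat diet and 3 were higher, none lower, beside 7.33% and 5.47% of all genes. Against CCl4 the numbers were 6, 3 and none, beside 8.03% and 7.39%. Il1r1, the signaling receptor of interleukin 1, stood at 194, 11.4 and 11.2 CPM. Il6st, the shared signaling chain of the interleukin 6 family, stood at 63.5, 27.0 and 29.0, and Tnfrsf1a, a receptor of tumor necrosis factor, at 74.7, 31.6 and 25.4. In T cells too these genes were highest in the control library. There Il1r1 stood at 47.1, 8.43 and 4.57 CPM, Il6st at 50.7, 33.7 and 24.9 and Tnfrsf1a at 54.4, 32.9 and 31.8. Whether the differences belong to hepatocytes or to the whole library was not tested. The other two named receptors were highest with CCl4, within 2-fold of the control level. Il6ra, the binding receptor of interleukin 6, stood at 28.9, 16.2 and 50.9 CPM (log2 ratio of control to CCl4 -0.72), and Il1rap, the accessory chain of the interleukin 1 receptor, at 49.2, 45.3 and 80.1 (-0.65).

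Of 26 transducers, transcription factors and feedback inhibitors, 11 passed the limit against the high-fat diet, with 6 higher in the control library and none lower, and 11 against CCl4, with 4 higher and none lower, beside the same shares of all genes. Cebpb, a C/EBP factor of the acute-phase response, stood at 1323, 441 and 496 CPM, and Cebpd, another C/EBP factor, at 80.2, 16.2 and 23.3. Nfkb1, an NF-kB subunit, had 73.8, 13.5 and 17.0 CPM, Nfkbia, an inhibitor of NF-kB, had 126, 56.5 and 49.4, and Stat3 had 172, 71.8 and 89.5. In T cells each of these genes was also highest in the control library. Nfkb1 (200, 62.7 and 60.6 CPM), Nfkbia (482, 387 and 268) and Stat3 (292, 130 and 107) stood higher there than in hepatocytes. Cebpb (585, 383 and 396) and Cebpd (28.7, 10.8 and 19.7) stood lower.

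The cytokines themselves had their highest levels outside hepatocytes. None of the 14 on the list passed the limit in hepatocytes. Over the classes of at least 20 cells, 10 of the 14 had their highest level in a control class, 4 in a high-fat diet class and 0 in a CCl4 class. The control library also had the most such classes (15, 14 and 12 beside hepatocytes and T cells). The same count was not made over all genes, so nothing is read from it. Il33, an alarmin of the interleukin 1 family, was highest in control fibroblast- and stellate-like cells (109 CPM). It stood at 21.1, 1.08 and 2.63 CPM in hepatocytes and at 4.04, 0.588 and 0.914 in T cells. Il1b was highest in control granulocyte-like cells (2012 CPM), Osm (oncostatin M) in control basophil-like cells (1631) and Clcf1, a cytokine of the interleukin 6 family, in control cholangiocyte-like cells (128). Il18 was highest in high-fat diet basophil-like cells (50.6 CPM). It stood at 13.5, 25.4 and 17.3 CPM in hepatocytes and at 2.83, 18.8 and 15.8 in T cells. Il6, named here after its values were seen, was highest in control basophil-like cells (2532 CPM).

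Of the partners of the protein, a few were lower in the control library. Of 23 receptors and binding partners, 13 passed the limit against the high-fat diet and 12 against CCl4, and in each comparison 3 were lower in the control library and none higher. Of all genes 5.47% and 7.39% were lower in these comparisons. Apoe, an apolipoprotein, stood at 5163, 14081 and 18061 CPM, and Cd36, a scavenger receptor, at 38.7, 103 and 119.8. Pltp, the phospholipid transfer protein, stood at 3.46, 52.4 and 1.85 CPM, and Ctsb, a lysosomal protease that cleaves serum amyloid A, at 202, 257 and 448. Tlr2, a Toll-like receptor under the limit in hepatocytes, stood at 33.4, 0.912 and 0.195 CPM there and was highest in control monocyte-like cells (210). In T cells these genes differed from the control library in the same directions. There Apoe stood at 1779, 11272 and 16301 CPM, Cd36 at 13.7, 74.1 and 60.6 and Pltp at 3.03, 39.0 and 1.83. Ctsb stood at 119, 223 and 280 and Tlr2 at 10.7, 2.35 and 0.686. Whether the differences belong to hepatocytes or to the whole library was not tested.

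Of 11 negative acute-phase proteins, which fall in the textbook response, 1 was higher and 1 lower in the control library against the high-fat diet, and none higher and 4 lower against CCl4. Of all genes, 7.33% were higher and 5.47% lower in the first comparison, and 8.03% and 7.39% in the second. Apoa4, an intestinal and hepatic apolipoprotein, was the higher, at 994, 33.1 and 856 CPM. Serpina6, the corticosteroid-binding globulin, was lower in both comparisons, at 39.5, 155 and 243. Against CCl4, Alb (albumin; 16845, 25749 and 55864 CPM), Ttr (transthyretin; 9251, 12356 and 26666) and Car3 (a carbonic anhydrase; 982, 1452 and 2268) were lower too. In T cells the 4 lower genes were also lowest in the control library. There Alb stood at 4372, 18620 and 37472 CPM and Ttr at 2977, 8551 and 24022. Car3 stood at 320, 901 and 1393, Serpina6 at 13.5, 103 and 162 and Apoa4 at 269, 20.4 and 611. Whether the differences belong to hepatocytes or to the whole library was not tested.

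By profile over the 47 class and library points of at least 20 cells, the genes most like the summed Saa1 to Saa3 level among 8264 genes were Orm2 (Pearson r = 0.94 on log2 CPM plus 5), Apcs (0.91), Idi1 (0.90), Hmgcs1 (0.86) and Mt1 (0.86). Idi1 and Hmgcs1 are enzymes of cholesterol synthesis. Most like Saa3 were Mt1 (0.80), Mt2 (0.75), Ptpn2 (0.67), Tmed7 (0.66) and Steap4 (0.66), and the values for Saa4 were lower, at 0.47 with both profiles. These points share 3 libraries and the free RNA of each, so the values describe a pattern and carry no p.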

How the data were processed

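Liver cells of 3 libraries, 1 for each condition, were measured by 10x Genomics 3′ single-cell RNA sequencing. The deposited matrices hold UMI counts per gene and barcode that the authors made with Cell Ranger, whose version in the file header is 7.2.0. The submitters' processing notes name GRCm39 and Seurat, the study's methods name mm10, and the files hold no coordinates. Of the 55357 identifiers, 52081 are in GENCODE M21 (GRCm38) and 3276 are not. Positions and upstream sequences are those of RefSeq GRCm38.p6, where all 4 members matched, and were not compared with any peak or read.

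Barcodes entered the clustering from 500 UMIs and 200 genes up, unless over 30% of their UMIs were mitochondrial, which left 11205, 12982 and 12759. Counts were scaled to 10000, log-transformed, and clustered together in scanpy 1.11.5 (Python 3.11.15, python-igraph 0.11.9) with 2000 variable genes, without the Saa genes, 30 principal components, 15 neighbours and a Leiden resolution of 1. A cluster was named where at least 3 markers of a list were raised and no other list had more markers among its 10 leading genes. A raised marker had a UMI in at least 10% of the cluster's cells and a summed level at least 1.5-fold a reference level, both as CPM plus 5. The reference was the lower quartile over clusters of at least 20 cells, within the library that gave the cluster most of its cells. Of 3 forms of the naming rule tried, the last was chosen after the clusters and their Saa levels had been seen. Scrublet marked 5 of 36990 barcodes, which were left out, and so few that it did not work as a doublet filter. An alternative dropped the top 8% of barcodes by doublet score.

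Summed UMIs per class and library were given as CPM with exact Poisson intervals, shares with exact Clopper-Pearson intervals and ratios with exact conditional intervals, all at 95% (scipy 1.17.1). Fold changes used CPM plus 5 and genes with at least 50 CPM in either library. Outside the members, up to 5 genes of each list were named, by the size of that ratio, among those at 50 CPM in hepatocytes (for cytokines and binding partners, in any class of at least 20 cells), and 5 more by likeness to each of 2 profiles. Mbl2 and Il6 were named after their values were seen. The fold rule was tested on simulated data. With 1 library per condition no test was possible. The members and gene lists were chosen with earlier results of these data known.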

Additional observations from a re-analysis of the deposited data

How the results depend on the processing

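No paired analysis was possible because each condition is 1 library. The family ratio of control to high-fat diet hepatocytes (35.4) was 36.0 scaled outside mitochondrial genes, 34.7 scaled also outside the 20 most abundant genes, 23.4 and 47.6 in clusters rich and poor in mitochondrial RNA, 100.85 with the T cell level subtracted, 45.4 by the median over cells and 28.8 over all deposited barcodes. In the same order, leaving out the first setting, control to CCl4 (85.2) was 79.9, 55.4, 106, 266, 119 and 62.9. High-fat diet to CCl4 (2.41) was 2.30 with the second scaling, 2.22 in clusters poor in mitochondrial RNA, 2.63 with T cells subtracted, 2.62 by the median and 2.18 over all barcodes. The last pair of ratios was 74.9 and 2.12 at resolution 0.5, 75.8 and 2.14 at resolution 2.0, 75.2 and 2.13 with a mitochondrial limit of 10%, 83.0 and 2.35 with Saa genes used in clustering, 74.99 and 2.12 with more variable genes, 79.7 and 2.25 with each library clustered on its own, and 83.0 and 2.35 with unnamed clusters counted as hepatocytes. Saa3 in CCl4 Kupffer-like cells (372 times T cells) was 228 times B cells, and 197 times T cells without the cell with the most UMIs. With each library clustered on its own, the high-fat diet ratio of fibroblast- and stellate-like cells went from 57.2 to 94.8 and that of monocyte-like cells from 29.8 to 52.7. Resolution 0.5 and clustering by library gave no Kupffer-like class with CCl4. Genes past the fold numbered 798, 950 and 682 at 1.5-fold and 132, 180 and 84 at 3-fold, against 337, 409 and 243. Scaled outside mitochondrial and the 20 most abundant genes, 219 genes were higher and 281 lower in control than CCl4 hepatocytes (43.8% of those past the fold higher, against 52.1%), and 124 and 156 between high-fat diet and CCl4 (44.3% against 50.2%). Under it 2 cytokine receptors, not 3, were higher in control than CCl4, and the members' counts stayed at 4, 4 and 2 higher. The pericentral ratio was 1.05 (control) and 1.53 (high-fat diet) with 4 groups, and 2.14 (high-fat diet) in clusters rich in mitochondrial RNA. The Saa3 ratio of high-fat diet to CCl4 hepatocytes (0.726) turned to 1.34 with T cells subtracted. Over all barcodes, most of whose Saa3 UMIs lay outside hepatocytes, the ratio was 1.32. The cause of these changes was not tested. Pools of 2 mice in 1 library per condition leave the spread between mice unmeasured.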
